A study of Mus musculus with 7 samples.

Results

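The genes described here are the ligands and receptors of the interleukin-6 (IL-6) and interleukin-10 (IL-10) axes, chosen by symbol: Il6, Osm, Lif and Il10 for the ligands, and Il6ra, Il6st, Il10ra and Il10rb for the receptor chains. All 8 were found, of 28666 genes in the expression table. The RNA came from bone marrow-derived dendritic cells (BMDCs) of female C57BL/6 mice aged 6 to 8 weeks, grown for 7 days with 20 ng/mL GM-CSF and 10 ng/mL IL-4. They were then kept in a Transwell chamber with MC38 cells, a mouse colon adenocarcinoma line, and DON, a glutamine antagonist, for 24 h, at 5 µM where the study names a dose for this co-culture, and the study describes its DON condition as also holding 2 mM added glutamine. Flow sorting gave 3 immature and 4 mature libraries. By the study's account of this profiling both groups share the co-culture and the DON condition, but a legend names MC38 cells given DMSO or DON, the labels name no treatment, and no library is labelled as a control. The study states in general that its data come from 3 or more independent experiments. The labels do not say how the libraries of a group relate to separate cultures or animals, so p-values measure only the spread between these libraries.

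IL-6, oncostatin M and leukemia inhibitory factor belong to a cytokine family that signals through gp130, the shared chain encoded by Il6st, and through JAK kinases to STAT3. IL-6 first binds its own receptor chain, encoded by Il6ra, which can also be shed from the membrane. IL-10 binds a pair of chains encoded by Il10ra and Il10rb, also activates STAT3, and is known to restrain dendritic cell activation.

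Total counts were 61296014, 57359581 and 67973086 in immature replicates 1, 2 and 3, and 62285010, 61817255, 54846746 and 60481142 in mature replicates 1, 2, 3 and 4. Mature replicates 1, 2 and 3 each stood apart from the other mature libraries in some genes. In mature replicate 3, long transcripts had lower counts than in the other mature libraries: the median ratio of its CPM (counts scaled to library size after TMM normalization) to the mean of the other 3 was 0.665 over 683 genes whose longest transcript has at least 8000 bases, and 1.48 over 2062 genes under 1500 bases. In mature replicate 1, the summed FPKM (fragments scaled to transcript length and library size) of 12 cardiac muscle genes was 13.1, against 294, 311 and 289 in mature replicates 2, 3 and 4 and 2.33 to 2.77 in the immature libraries. In mature replicate 2, the summed FPKM of 10 kidney epithelium genes was 196, against 3.00 to 5.07 in the other mature libraries. Where the call of a named gene changed without one of these libraries, this is said beside it.

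The labels of the groups were read beside markers. All 10 genes of a dendritic cell maturation list were higher in mature BMDCs by the criteria given below, with a summed FPKM of 503, 522 and 515 in immature replicates 1 to 3 and 5215, 5465, 5913 and 5540 in mature replicates 1 to 4. Ccl22, a chemokine gene, was the most abundant of them. In mouse tissues the study marks mature dendritic cells by CD80 and CD86, and its account of this sort names no markers. If the sort used these proteins, the rise of Cd80 and Cd86 on this list follows from it and is no separate check of the label. Of 10 macrophage genes, 8 of the 9 tested were lower in mature BMDCs, with C1qb, a complement gene, the most abundant, and their summed FPKM was 667 to 694 in the immature and 129 to 146 in the mature libraries. These RNA samples are bulk, so fewer cells of a type and less RNA per cell cannot be told apart.

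Counts of 17461 genes were tested between the groups with the quasi-likelihood method of edgeR. The criteria of the study were used: a log2 fold change, mature over immature, of 1 or more in either direction with a Benjamini-Hochberg adjusted p under 0.05. Of the 8 genes, 2 passed, Il6st higher and Il6ra lower in mature BMDCs, while 23.1% of all tested genes passed in either direction, 13.2% higher and 9.95% lower. By the adjusted p alone 6 of the 8 passed, against 46.1% of all tested genes. For 6 of the 8 genes the immature and mature libraries had separate CPM ranges, against 52.1% of all tested genes. The median log2 fold change was 0.23 over the 8 genes and 0.06 over all tested genes. The share past both criteria was near that of all genes. All 8 genes passed the filter on low counts, Il10 only through a few libraries, so these counts and the median describe the list and support nothing about it.

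**Figure D1:**
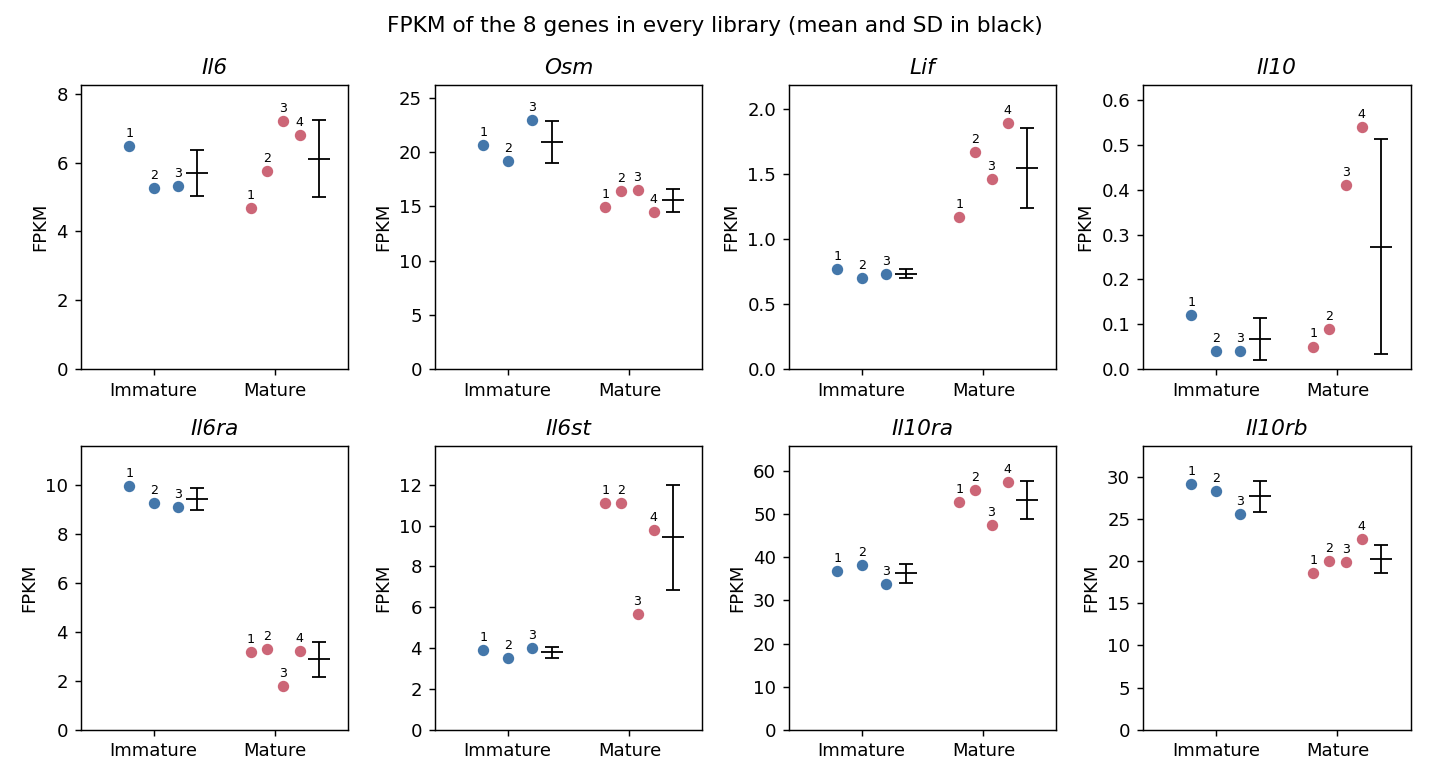
FPKM (vertical axes, from 0) of the 8 genes in each of 3 immature and 4 mature libraries, with points numbered by replicate and the group mean with its SD in black. Il6ra was 9.10 or more in each immature and 3.31 or less in each mature library, while the groups overlapped for Il6 and Il10.

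Among the ligands, Il6 (ENSMUSG00000025746, chromosome 5 from 30013114 to 30019981 in GRCm38) encodes IL-6, a cytokine that dendritic cells release on activation. Its FPKM was 6.47, 5.27 and 5.33 in immature replicates 1 to 3 and 4.69, 5.76, 7.22 and 6.79 in mature replicates 1 to 4. Mature replicate 1 was the lowest and mature replicate 3 the highest of the 7 libraries, and the groups overlapped. The mean CPM was 15.8 ± 1.78 over immature (SD, n = 3) and 15.8 ± 3.51 over mature libraries (SD, n = 4). The log2 fold change was 0.00 (standard error, SE, 0.18, adjusted p = 0.987 by edgeR), with a 95% interval from -0.41 to 0.41. With mature replicate 1 alone against the immature libraries it was -0.39 (adjusted p = 0.086), and 0.12 without mature replicate 1.

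Osm (ENSMUSG00000058755, chromosome 11 from 4236420 to 4241026) encodes oncostatin M. Its FPKM was 20.7, 19.2 and 23.0 in immature replicates 1 to 3 and 14.9, 16.4, 16.5 and 14.5 in mature replicates 1 to 4. Each mature library was below each immature library. Osm fell from a mean CPM of 54.2 ± 6.28 in immature (SD, n = 3) to 37.4 ± 3.64 in mature libraries (SD, n = 4), a log2 fold change of -0.53 (SE 0.11, adjusted p = 0.00421 by edgeR), short of the fold criterion.

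Lif (ENSMUSG00000034394, chromosome 11 from 4257557 to 4272514) encodes leukemia inhibitory factor and lies 16530 bases from the end of Osm, with no other gene of the table between them. Its FPKM was 0.77, 0.70 and 0.73 in immature replicates 1 to 3 and 1.17, 1.67, 1.46 and 1.89 in mature replicates 1 to 4. Each mature library was above each immature library, with mature replicate 1 the nearest to them. Lif rose from a mean CPM of 3.66 ± 0.199 in immature (SD, n = 3) to 7.14 ± 1.39 in mature libraries (SD, n = 4), a log2 fold change of 0.96 (SE 0.19, adjusted p = 0.00324 by edgeR), just short of the fold criterion. It was 1.08 without mature replicate 1, which passes the criterion, 0.98 without mature replicate 3 and 1.15 without both, and 0.55 (adjusted p = 0.0823) with mature replicate 1 alone. So these neighbouring genes differed between the groups in opposite directions: the ratio of Osm to Lif in FPKM was 26.9 to 31.5 in the immature and 7.65 to 12.7 in the mature libraries.

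Il10 (ENSMUSG00000016529, chromosome 1 from 131019845 to 131024974) encodes IL-10. It had 11, 4 and 4 counts in immature replicates 1 to 3 and 5, 8, 33 and 47 counts in mature replicates 1 to 4. Mature replicates 3 and 4 were high, and mature replicates 1 and 2 lay within the range of the immature libraries, so the groups overlapped. In FPKM these were 0.12, 0.04 and 0.04 against 0.05, 0.09, 0.41 and 0.54. Its longest transcript has 1310 bases. In mature replicate 3 its CPM was 1.97 times the mean of the other mature libraries, where the median for transcripts under 1500 bases was 1.48. The part of transcript length in this level was not tested. Low counts in every library were more often multiples of 4 than their neighbours, so 1 fragment may stand for about 4 counts, and a floor of 3 fragments is then about 12 counts, which only mature replicates 3 and 4 exceeded. The fitted log2 fold change was 1.85 (SE 0.95, adjusted p = 0.144 by edgeR), with a 95% interval from -0.31 to 4.02. With single libraries left out it was 1.57 to 2.50 in the fits that tested the gene, and with the replicate block 0.92. With most libraries at or under this floor the fitted value is no bound, and it did not pass the test, with 5 to 47 counts among the mature libraries. With mature replicate 1 alone the value was -0.46 (adjusted p = 0.867), and without mature replicate 3, or without mature replicate 4, the gene no longer passed the filter on low counts.

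Among the receptors, Il6ra (ENSMUSG00000027947, chromosome 3 from 89864059 to 89913196) encodes the chain that binds IL-6. Its FPKM was 9.95, 9.25 and 9.10 in immature replicates 1 to 3 and 3.18, 3.31, 1.79 and 3.22 in mature replicates 1 to 4. Each mature library was far below each immature library, and mature replicate 3 was the lowest. Il6ra fell from a mean CPM of 92.8 ± 3.97 in immature (SD, n = 3) to 26.1 ± 5.69 in mature libraries (SD, n = 4), 3.56-fold higher in immature BMDCs, with a log2 fold change of -1.83 (SE 0.17, adjusted p = 3.9e-05 by edgeR). It was -1.66 without mature replicate 3 and -1.68 with mature replicate 1 alone.

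Il6st (ENSMUSG00000021756, chromosome 13 from 112464070 to 112510086) encodes gp130, the signalling chain shared by the receptors for IL-6, oncostatin M and leukemia inhibitory factor. Its FPKM was 3.90, 3.49 and 3.98 in immature replicates 1 to 3 and 11.1, 11.1, 5.67 and 9.79 in mature replicates 1 to 4. The groups did not overlap, and mature replicate 3 was the mature library nearest to the immature ones. Il6st rose from a mean CPM of 48.0 ± 4.26 in immature (SD, n = 3) to 110 ± 26.2 in mature libraries (SD, n = 4), 2.29-fold higher, with a log2 fold change of 1.19 (SE 0.20, adjusted p = 0.00116 by edgeR). It was 1.38 without mature replicate 3 and 1.44 with mature replicate 1 alone.

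The IL-6 receptor chains thus moved in opposite directions. The ratio of Il6ra to Il6st in FPKM was 2.55, 2.65 and 2.29 in immature replicates 1 to 3 and 0.287, 0.298, 0.316 and 0.329 in mature replicates 1 to 4. Il6ra was the more abundant of the pair in each immature library and Il6st in each mature library. Their longest transcripts, of 8639 and 8678 bases, are the longest of the 8 genes. In mature replicate 3 Il6ra stood at 0.607 and Il6st at 0.583 of the mean CPM of the other mature libraries, near the median of 0.665 for transcripts of that length, while the ratio of the pair in that library lay between those of the other mature libraries. The part of transcript length in the level of either gene in mature replicate 3 was not tested.

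Il10ra (ENSMUSG00000032089, chromosome 9 from 45253837 to 45269149) encodes the chain that binds IL-10 with high affinity. Its FPKM was 36.9, 38.1 and 33.8 in immature replicates 1 to 3 and 52.8, 55.7, 47.4 and 57.4 in mature replicates 1 to 4. Each mature library was above each immature library. Il10ra rose from a mean CPM of 144 ± 5.48 in immature (SD, n = 3) to 197 ± 9.93 in mature libraries (SD, n = 4), 1.36-fold, with a log2 fold change of 0.45 (SE 0.08, adjusted p = 0.00135 by edgeR).

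Il10rb (ENSMUSG00000022969, chromosome 16 from 91406164 to 91425834) encodes the second chain, which the IL-10 receptor shares with those for IL-22 and interferon lambda. Its FPKM was 29.2, 28.3 and 25.6 in immature replicates 1 to 3 and 18.6, 20.1, 19.9 and 22.6 in mature replicates 1 to 4. Each mature library was below each immature library. Il10rb fell from a mean CPM of 120 ± 5.67 in immature (SD, n = 3) to 81.8 ± 7.63 in mature libraries (SD, n = 4), 1.47-fold higher in immature BMDCs, with a log2 fold change of -0.55 (SE 0.09, adjusted p = 0.00122 by edgeR). The annotated gene Gm21970 overlaps it on the same strand, so its reads may be shared. Il10ra is overlapped by Mir7086 on its own strand and by Gm20612 on the other, and Il6ra by Gm42809 on the other strand. The ratio of Il10ra to Il10rb in FPKM was 1.27 to 1.35 in the immature and 2.38 to 2.84 in the mature libraries.

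**Figure D2:**
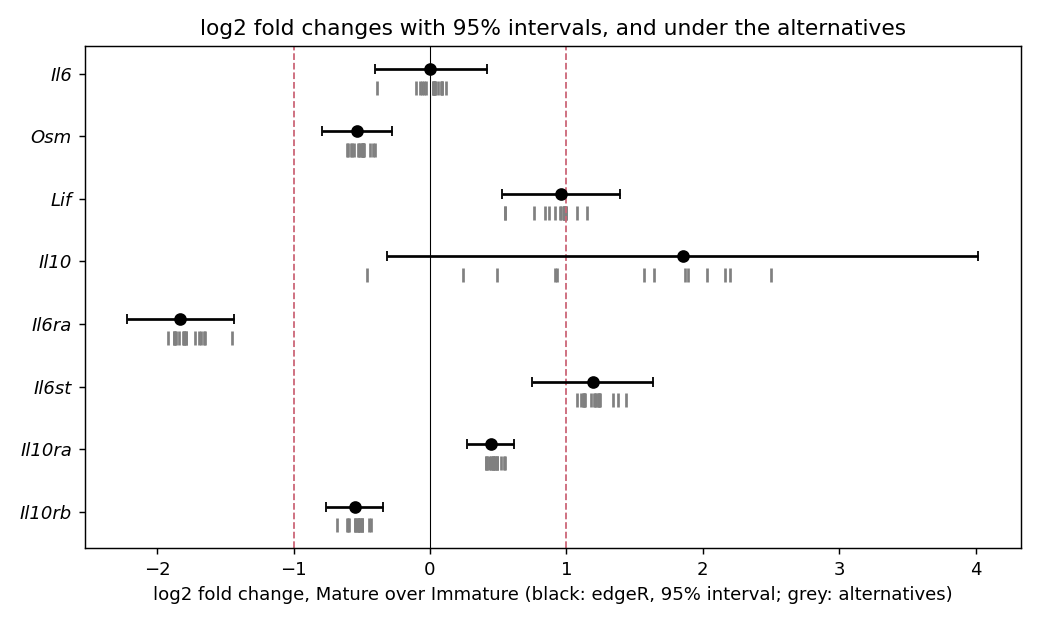
log2 fold changes (horizontal axis, mature over immature) of the 8 genes, with the edgeR value and its 95% interval in black, the values under the alternatives as grey ticks and the fold criterion as dashed lines. Il6ra lies beyond -1 and Il6st beyond 1 in each fit, Lif lies on either side of 1, and the interval of Il10 spans -0.31 to 4.02.

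Levels were compared between genes in FPKM, which is scaled by length. In immature BMDCs the order of the mean levels was Il10ra (36.3), Il10rb (27.7), Osm (20.9), Il6ra (9.43), Il6 (5.69), Il6st (3.79), Lif (0.733) and Il10 (0.0667), and no neighbours in it overlapped over the libraries. In mature BMDCs it was Il10ra (53.3), Il10rb (20.3), Osm (15.6), Il6st (9.42), Il6 (6.12), Il6ra (2.88), Lif (1.55) and Il10 (0.273). There Il6st overlapped with Il6, and Il6ra with Lif, in both cases through mature replicate 3. Over mature replicates 1, 2 and 4 Il6st was at 9.79 to 11.1 and Il6ra at 3.18 to 3.31 FPKM, above each mature value of Il6 and of Lif, respectively. The first 3 positions and the last 2 were held by the same genes in both groups, and Il6ra and Il6st exchanged places.

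Of 11822 genes with a mean FPKM of at least 1 in a group, Hip1 and Pgap1 had the pattern nearest to Il6ra over the 7 libraries. Their root mean square differences from it in centred log2 CPM were 0.030 and 0.065, where the median gene had 0.962. Nearest to Il6st were Kif21b and Ankrd44, with 0.056 and 0.062, where the median gene had 0.721. Their log2 fold changes were -1.78 for Hip1, -1.89 for Pgap1, 1.14 for Kif21b and 1.19 for Ankrd44. These 4 genes also have long transcripts, of 7835, 10583, 9254 and 6192 bases for Hip1, Pgap1, Kif21b and Ankrd44, and in mature replicate 3 their CPM was 0.561 to 0.632 of the mean of the other mature libraries. The likeness therefore includes the lower level in that library.

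Other genes of these pathways were taken from 9 lists. Of 65 tested genes on them, 21 passed the criteria, 14 higher and 7 lower in mature BMDCs. Of all tested genes 23.1% passed, 13.2% higher and 9.95% lower, with a median of 0.06, and the counts and medians of the lists stand beside these shares. Among other gp130 family ligands, 0 of 7 tested genes passed by edgeR, with a median log2 fold change of -0.36. Ebi3 and Clcf1 had an unadjusted and an adjusted p under 0.05, at 0.85 and 0.77 on the log2 scale. Among other gp130 family receptors, 3 of 5 tested genes passed, 1 higher and 2 lower, with a median of -0.20. Il31ra, which encodes a chain for IL-31, was at 0.23 to 0.38 FPKM in the immature and 1.55 to 4.87 FPKM in the mature libraries, a log2 fold change of 3.38 (SE 0.38, adjusted p = 0.000115 by edgeR). Lifr, the receptor chain for leukemia inhibitory factor, went from 1.88 to 2.03 FPKM down to 0.67 to 1.13 FPKM, a log2 fold change of -1.11. Il11ra1, the IL-11 receptor, went from 9.66 to 11.9 FPKM down to 4.71 to 7.18 FPKM, a log2 fold change of -1.05. Both of these calls ended without single libraries. Lifr was at -0.97 without mature replicate 3, and Il11ra1 at -0.97 without mature replicate 1, just short of the fold criterion without mature replicate 2, -0.99 without mature replicate 4 and -0.98 without immature replicate 2. Osmr, the oncostatin M receptor chain, had 10 to 55 counts in a library (0.01 to 0.07 FPKM), with overlapping groups and a log2 fold change of 1.13 (edgeR adjusted p = 0.164). It passed without mature replicate 1, at 1.45 (adjusted p = 0.0195). The list held 2 to 3 genes past the criteria with single libraries left out and 1 in each limma fit.

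Of other IL-10 family ligands, 2 were in the table, Il19 and Il22, with at most 8 counts in a library, and neither passed the filter on low counts. Of other IL-10 family receptors 1 of 2 tested genes passed, with a median of 1.78. This was Ifnlr1, the interferon lambda receptor, at 0.31 to 0.44 FPKM in the immature and 4.31 to 7.10 FPKM in the mature libraries, a log2 fold change of 3.80 (SE 0.21, adjusted p = 1.9e-06 by edgeR). It shares the chain encoded by Il10rb, which was lower in mature BMDCs.

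Of 12 JAK-STAT transducers 3 passed, 2 higher and 1 lower, with a median log2 fold change of 0.07, and 8 had an adjusted p under 0.05, where 46.1% of all tested genes had. Jak2, a kinase of cytokine receptors, rose from 90.7 to 102 FPKM in the immature up to 217 to 330 FPKM in the mature libraries, a log2 fold change of 1.51. Stat5a rose by 1.03, and Gab1, an adaptor, fell by 1.07 on the log2 scale. Both lay near the fold criterion: Stat5a was at 0.99 without mature replicate 4, and Gab1 at -0.99 without mature replicate 3 and just short of the criterion without mature replicate 1, and the list then held 2 genes past the criteria. Stat3, the factor both axes act through, was at 16.6 to 17.7 FPKM in the immature and 26.3 to 35.7 FPKM in the mature libraries, a log2 fold change of 0.82 (SE 0.09, adjusted p = 0.000112 by edgeR), short of the fold criterion. Tyk2, a kinase bound to both receptor types, had a log2 fold change of 0.76 (edgeR adjusted p = 0.000298). Jak1, the other kinase of both, had -0.19 (edgeR adjusted p = 0.273), and -0.06 without mature replicate 3, and its groups overlapped.

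Of 9 feedback inhibitors 2 passed, both higher, with a median of 0.44, and 6 had an adjusted p under 0.05, where 46.1% of all tested genes had. They were Socs2, with a log2 fold change of 1.49, and Pias3, with 1.22. Socs3, the inhibitor that binds gp130, was at 16.2, 11.1 and 10.1 FPKM in immature replicates 1 to 3 and 9.35, 13.9, 18.5 and 15.3 FPKM in mature replicates 1 to 4. The groups overlapped, with a log2 fold change of 0.10 (SE 0.25, adjusted p = 0.780 by edgeR), which was -0.07 without mature replicate 3. Socs1 had 0.81 (edgeR adjusted p = 0.00975), short of the fold criterion. Of the 6 inhibitors with an adjusted p under 0.05, Ptpn6 was lower, at -0.69 (edgeR adjusted p = 0.000273), and the others were higher.

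Of 10 genes known to respond to STAT3 or IL-10, 4 passed, all higher, with a median of 0.67. An adjusted p under 0.05 was found for 7, where 46.1% of all tested genes had one. Etv3, a repressor, rose by 1.46, Nfil3, a transcription factor, by 1.17 and Bcl3, a nuclear inhibitor of NF-kappa B, by 1.08 on the log2 scale. The fourth was Il4ra, with 1.08. Short of the fold criterion but with an edgeR adjusted p under 0.05, Ddit4 (0.86) and Sbno2 (0.48) were higher and Pim1 (-0.31) lower. Il1rn was at -0.38 (edgeR adjusted p = 0.0543). Zfp36 was at 0.24 and Junb at 0.02, both with overlapping groups.

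Of 15 regulators of the Il6 and Il10 transcripts 6 passed, 3 higher and 3 lower, with a median of -0.08. Rel, a subunit of NF-kappa B, was at 11.2 to 14.1 FPKM in the immature and 42.3 to 75.1 FPKM in the mature libraries, a log2 fold change of 2.17 (SE 0.17, adjusted p = 1.5e-05 by edgeR). Nfkb1, another subunit, rose by 1.65, and Arid5a, which stabilizes Il6 mRNA, by 1.31. Cebpb, a factor known to bind the Il6 promoter, was at 143 to 164 FPKM in the immature and 30.7 to 48.8 FPKM in the mature libraries, a log2 fold change of -2.10 (SE 0.19, adjusted p = 3.0e-05 by edgeR). Cebpd and Prdm1 passed too without mature replicate 3, Cebpd lower and just past the fold criterion and Prdm1 higher at 1.03, which made 8 genes of this list, and Prdm1 also without immature replicate 1, at 1.03.

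Maf, a known activator of Il10, had a log2 fold change of -1.33 (edgeR adjusted p = 0.00462). Nfkbiz, a coactivator of Il6, was at 10.4, 5.03 and 2.58 FPKM in immature replicates 1 to 3 and 2.28, 2.71, 2.89 and 1.66 FPKM in mature replicates 1 to 4. Its groups overlapped, and its log2 fold change of -1.42 (edgeR adjusted p = 0.0195) missed the threshold in 7 of 17 alternatives. It was -0.78 (adjusted p = 0.0827) without immature replicate 1 and -1.27 (adjusted p = 0.0509) without mature replicate 4, and over all 17 its adjusted p was 0.00403 to 0.0993. Zc3h12a, an RNase that degrades Il6 mRNA, had 0.03 (edgeR adjusted p = 0.792).

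Of 5 receptor sheddases and partners 2 passed, with a median of -0.17. Timp3, an inhibitor of sheddases, was at 0.20 to 0.24 FPKM in the immature and 2.62 to 5.43 FPKM in the mature libraries, a log2 fold change of 3.91. Adam10, a protease that can shed the IL-6 receptor, went from 50.3 to 54.6 FPKM down to 11.5 to 20.6 FPKM, a log2 fold change of -1.65. Adam17, the other such protease, had -0.64 (edgeR adjusted p = 0.00113), short of the fold criterion. Among 115 tested genes that the table assigns to the KEGG Jak-STAT pathway, 38 passed, 28 higher and 10 lower, Il6st and Il6ra among them, where 23.1% of all tested genes passed, with a median of 0.30. With limma on log2(FPKM + 1) 24 passed, where 10.1% of all genes passed, and with mature replicates 2 and 4 alone 44, where 23.7% of all genes passed. Of those named by the rule from this pathway, Stat4 had the largest change, 4.39, followed by Il23r, with 3.90, and Ifnlr1. This order did not hold in each fit. Il23r was at 4.47 and Stat4 at 4.41 without immature replicate 1. Il23r was at 3.50 and Ifnlr1 at 3.95 without immature replicate 2, where Il23r had 6 counts. Il23r was also below Ifnlr1 in each limma fit.

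Markers of other cells were read beside these results. Dendritic cell genes summed to 4382 to 4532 FPKM in the immature and 5602 to 7537 FPKM in the mature libraries. Of 11 genes 5 passed the criteria, all higher (Batf3, Zbtb46, Dpp4, Irf8 and Flt3, with Irf4 added without mature replicate 3 or immature replicate 1). Cd74, which serves antigen presentation, was the most abundant, with a log2 fold change of 0.41 (edgeR adjusted p = 0.0542). Irf4, Ciita and H2-Aa were higher with an adjusted p under 0.05, short of the fold criterion. Itgax was lower, at -0.41 (edgeR adjusted p = 0.0124), also short of it, and H2-Ab1 was at 0.06 (edgeR adjusted p = 0.819). All 12 cardiac muscle genes passed, higher in mature BMDCs, with Mb, the myoglobin gene, the most abundant, at 69.8 to 71.1 FPKM in mature replicates 2 to 4 and 0.18 in mature replicate 1. Kidney epithelium genes summed to 196 FPKM in mature replicate 2, of which Kap, a kidney gene, gave 171, and to 2.85 to 5.07 FPKM in the other libraries, and 0 of its 2 genes tested by edgeR passed, neither with an unadjusted p under 0.05, with Cubn added without mature replicate 4. With single libraries left out 9 to 12 cardiac muscle genes passed, and with mature replicate 1 alone 1 did, Tnni3.

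The lists of remaining cell types were low. Neutrophil genes summed to 5.42 to 9.84 FPKM over the 7 libraries, with 1 of 5 tested genes, S100a8, lower and none higher, Cxcr2, a chemokine receptor, the most abundant (over the 7 fits that leave out 1 library S100a8 passed only without immature replicate 1 and without mature replicate 3, and Cxcr2 passed, higher, without mature replicate 3), and Camp, Ltf and Mpo under 0.1 in each library. Mast cell and basophil genes summed to 1.08 to 1.30 FPKM in the immature and 4.55 to 6.34 FPKM in the mature libraries, with 2 of 5 tested genes higher, Kit and Hdc (Hdc not without immature replicate 2). Kit was the most abundant and Cma1, Fcer1a, Mcpt4 and Tpsb2 were under 0.1. T and NK cell genes summed to 1.9 to 5.64 FPKM, with 1 of 8 tested genes, Cd8a, higher, Gzma, a granzyme, the most abundant and Cd3e and Prf1 under 0.1. B and plasma cell genes summed to 2.42 to 2.62 FPKM in the immature and 0.65 to 1.06 FPKM in the mature libraries, with 1 of 2 tested genes lower, Cd22, which was also the most abundant, and Blk, Cr2, Fcer2a, Ighd, Jchain, Ms4a1 and Pax5 under 0.1.

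Carcinoma and epithelial genes summed to 13.9 to 21.9 FPKM, with 1 of 5 tested genes, Epcam, higher. Krt19 passed, lower, without mature replicate 1. Cdh1, which encodes E-cadherin, was the most abundant, and Cdx2, Cldn7 and Krt20 were under 0.1. Stromal fibroblast genes summed to 1.76 to 2.92 FPKM in the immature and 3.89 to 5.80 FPKM in the mature libraries, with 4 of 10 higher, Dcn, Col1a2, Lum and Cxcl12, and Col3a1, a collagen gene, the most abundant. Each of these 4 was at 0.09 FPKM or less in mature replicate 1 and at 0.17 to 1.36 FPKM in mature replicates 2 to 4, the libraries with high cardiac muscle genes. With single libraries left out 3 to 5 genes were higher: Pdgfra was added without mature replicate 1, and Lum was lost without each of the other libraries. Endothelial genes summed to 12.9 to 13.7 FPKM in the immature and 4.40 to 8.16 FPKM in the mature libraries, with 6 of 10 higher and 1 lower, Vwf, which was also the most abundant. Of the 6, Tek, Cdh5, Cldn5 and Emcn were at 0.05 FPKM or less in mature replicate 1 and at 0.07 to 0.71 FPKM in mature replicates 2 to 4. With single libraries left out 2 to 6 were higher, Esam and Tie1 in each of these fits, and with mature replicate 1 alone only Esam was. Among the fits that leave out a single library, Tek and Cldn5 passed only without mature replicate 1. Cdh5 passed only without mature replicate 1, mature replicate 3 or immature replicate 3. Emcn did not pass without mature replicate 2, 3 or 4, where 7 of the 10 endothelial genes were tested. The part of any of these cells in the levels of the 8 genes was not tested.

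Promoter sequence from RefSeq (GRCm38.p6) was matched for 4 of the 8 genes, Il6, Il6ra, Il6st and Lif. Osm, Il10, Il10ra and Il10rb were not matched. The 250 bases before each start were searched on both strands for GGGANTTTC (NF-kappa B), TGANTCA (AP-1), TTGNNCAA (C/EBP), TTGCGCAA (the C/EBP palindrome, which the letters before it include), TTCNNNGAA (STAT) and GGGCGG (the GC box). Of 32851 promoters 0.941% held the first, 6.75% the second, 5.65% the third, 0.164% the fourth, 7.02% the fifth and 32.7% the last. The sequences are shown because Il6ra and Il6st moved in opposite directions, and because Rel and Nfkb1 rose while Il6 did not pass the test. Capitals mark matches to these letters.
Il6 (chr5:30012864-30013113, plus strand): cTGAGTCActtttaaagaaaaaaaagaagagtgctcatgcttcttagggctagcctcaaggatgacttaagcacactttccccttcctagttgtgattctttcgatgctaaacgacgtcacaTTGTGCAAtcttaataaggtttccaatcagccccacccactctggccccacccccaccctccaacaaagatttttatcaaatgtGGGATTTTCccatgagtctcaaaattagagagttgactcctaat
Lif (chr11:4257318-4257567, plus strand): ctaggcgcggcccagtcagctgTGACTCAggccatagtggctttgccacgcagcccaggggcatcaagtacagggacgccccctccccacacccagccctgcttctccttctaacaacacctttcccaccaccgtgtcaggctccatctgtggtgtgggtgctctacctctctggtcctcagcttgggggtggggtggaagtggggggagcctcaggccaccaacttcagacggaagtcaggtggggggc
Il6ra (chr3:89913197-89913446, minus strand): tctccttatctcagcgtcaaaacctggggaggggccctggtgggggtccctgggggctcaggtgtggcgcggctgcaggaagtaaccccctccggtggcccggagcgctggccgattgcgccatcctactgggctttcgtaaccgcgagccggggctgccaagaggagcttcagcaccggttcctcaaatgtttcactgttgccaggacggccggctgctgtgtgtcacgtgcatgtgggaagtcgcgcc
Il6st (chr13:112463820-112464069, plus strand): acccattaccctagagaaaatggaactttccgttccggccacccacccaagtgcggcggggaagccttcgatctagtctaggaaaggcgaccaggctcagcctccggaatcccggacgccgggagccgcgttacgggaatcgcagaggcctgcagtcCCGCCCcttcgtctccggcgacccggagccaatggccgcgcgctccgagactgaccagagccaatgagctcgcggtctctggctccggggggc
Il6 held the NF-kappa B letters at 44 to 36 bases before the start, the AP-1 letters at 249 to 243 bases and the C/EBP letters, not as the palindrome, at 128 to 121 bases before it. Lif held the AP-1 letters at 228 to 222 bases before its RefSeq start, which lies a few bases inside the gene as the coordinates above give it. Il6st held only the GC box letters, at 93 to 88 bases before its start, and Il6ra none of the 6 motifs. The share of G and C was 42.8% for Il6, 63.6% for Lif, 65.2% for Il6ra and 66.0% for Il6st, with a median of 52.4% over all promoters. A match is a description of letters and not a measured binding site. The NF-kappa B and C/EBP letters were set after the sequences and matches were seen, so their matches are no test.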

How the data were processed

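RNA of 3 immature and 4 mature BMDC libraries was analysed, grouped by their labels. The library kit marks strand with dUTP, and whether counting used strand is not given in the sources used here. The submitters' processing notes name cutadapt 1.9, HISAT2 2.2.1, StringTie 2.1.6, DESeq2 and edgeR. The deposited values are whole-number gene counts that are not normalized and FPKM, which scale fragments by gene length and library total. The notes name mm9, but 90.4% of 28588 gene IDs matched to GENCODE M21 have the coordinates of GRCm38, all 8 genes among them, so coordinates are given in GRCm38.

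The fit used edgeR 4.0.16 under R 4.3.3 (filterByExpr, TMM normalization, quasi-likelihood test, all 7 libraries), with p-values adjusted over 17461 genes. CPM are counts scaled to library size after TMM, and the standard error (SE) is the absolute log2 fold change divided by the square root of F. Alternatives used DESeq2 1.42.0, limma 3.58.1 on log2(FPKM + 1), log2(FPKM + 0.1) and log2(TPM + 1), other filters, the replicate block, each library left out, mature replicate 1 alone, and the adjusted p alone. Counts divided by 4 and rounded, and mature replicates 2 and 4 alone, were added after seeing the data. The test was checked on simulated counts, where edgeR missed most differences in genes of low expression, such as Il10, and part of those of the size of the fold criterion at higher expression too, so a missed threshold says little there. The first rule for passing this check was not met, and the rule was replaced after its result was seen. DESeq2 made more false calls there than edgeR, so its p-values are liberal.

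The 8 genes and the lists were chosen with earlier results of these data known. Named from each list are up to 3 genes past the criteria with the largest change, no overlap between groups and a mean FPKM of at least 1, with Stat3, Jak1, Tyk2, Socs3, Socs1, Nfkbiz, Maf, Nfil3, Adam17 and Zc3h12a always given. For each of the 8 genes past the criteria, the 2 genes of nearest pattern are named. Il4ra, Arid5a, Ebi3, Clcf1, Osmr, Cebpd, Prdm1, Cish, Il19, Il22 and marker genes named for passing the criteria were named after their values were seen. So were Ptpn6, Pim1, Il1rn, Ddit4, Sbno2, Zfp36, Junb, Cd80, Cd86, Itgax, H2-Ab1, H2-Aa and Ciita. The NF-kappa B letters were shortened to 9, and the C/EBP letters corrected and the palindrome added, after the sequences and matches were seen. Between libraries of a group the median chi-square per gene was 3.83 to 5.27, and 17.7 to 25.6 for pairs with mature replicate 3. With counts divided by 4, since 1 fragment may stand for about 4 counts, it was 1.07 to 1.48, and 6.93 to 9.74 for pairs with mature replicate 3. Total counts were 54846746 to 67973086 per library and do not alone set the precision. The floor on counts covers counting error only. The intervals of the log2 fold changes come from edgeR and include the spread between libraries. Python 3.11.15, pandas 2.3.3, numpy 2.4.6, scipy 1.17.1 and matplotlib 3.10.9 were used.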

Additional observations from a re-analysis of the deposited data

Results flagged for a closer look

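The 8 ligand and receptor genes, the list genes named by the rule and the genes of nearest pattern, 40 in all, were compared over the mature libraries, and marker genes and genes named after their values were seen were not. In 12 of the 40, 1 library lay apart from the other 3 in CPM, and in all 12 this was mature replicate 3. Chance gives about 1 in 20 for independent genes, but these share their libraries, and Hip1, Pgap1 and Kif21b were named for a pattern like that of Il6ra or Il6st. Without the genes named that way it was 9 of 36. The distance from that library to its closest neighbour, as a share of the whole spread of the 4, was above Dixon's 95% critical value for each. It was 0.938 for Il6ra, 0.885 for Stat3, 0.873 for Jak2, 0.89 for Nfkb1, 0.869 for Jak1, 0.888 for Socs1, 0.919 for Hip1, 0.862 for Kif21b, 0.846 for Adam17, 0.96 for Nfil3, 0.891 for Pgap1 and 0.862 for Il11ra1. Of the 8 ligand and receptor genes only Il6ra was among them, at 17.6 CPM in mature replicate 3 and 28.5, 29.1 and 29.2 CPM in mature replicates 1, 2 and 4. Socs1, Nfil3 and Il11ra1 were higher in mature replicate 3 and the other 9 lower. The median ratio of mature replicate 3 to the other mature libraries was 0.665 over genes with transcripts of at least 8000 bases and 1.48 over those under 1500 bases, and the part of length in these values was not tested.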

How the results depend on the processing

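The log2 fold changes of Il6ra (-1.92 to -1.45), Il6st (1.08 to 1.44), Osm (-0.61 to -0.40), Il10ra (0.41 to 0.55) and Il10rb (-0.68 to -0.43) kept their direction and their side of the adjusted p threshold under all 17 alternatives. By the adjusted p alone 6 genes passed in place of 2. Without mature replicate 1, with mature replicates 2 and 4 alone, and with the filter on FPKM (1 or more in 3 libraries), 3 passed, since Lif then reached the fold criterion, at 1.08, 1.15 and 1.00. Over single libraries left out the number was 2 to 3.

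With mature replicate 1 alone, Lif was at 0.55 (edgeR adjusted p = 0.0823, with 1.7e-05, by DESeq2, to 0.0823 over its alternatives), Il6 at -0.39, Il10 at -0.46 and Socs3 at -0.52, and the cause was not tested. The lone library is assumed to vary like the immature ones. With single libraries left out, Il6 was between -0.10 and 0.12, Socs3 between -0.07 and 0.32 and Zc3h12a between -0.01 and 0.09, on both sides of 0. The adjusted p of Il10 was 0.0614 to 0.867 in the 13 alternatives that tested it. It was not tested without mature replicate 3, without mature replicate 4, with the filter on FPKM (1 or more in 3 libraries) or with counts divided by 4.

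With the replicate block, Il6 was at -0.07, and 3616 genes passed the criteria in place of 4037. Same-numbered libraries deviated together with correlations of 0.099, -0.156 and 0.072, and not every library correlated best with its own number. The labels do not say whether the numbers pair the libraries. These correlations cannot decide it, since the deviations of the mature libraries also hold the differences of mature replicates 1, 2 and 3 given above. The lists held 15 to 23 genes past the criteria in place of 21. With limma on log2(FPKM + 1) the regulators held 3 in place of 6. With mature replicate 1 alone the gp130 family ligands held 1, Clcf1, in place of 0. Gab1 and Lifr missed the fold criterion in each limma fit and with mature replicates 2 and 4 alone (-0.87 and -0.93), Il11ra1 in each limma fit, Maf in 2 of them (-0.54 and -0.90), Arid5a (0.94) and Pgap1 (-0.92) with limma on log2(FPKM + 1), and Stat5a with the block (0.97). Cish passed with limma on log2(FPKM + 0.1) and with mature replicates 2 and 4 alone, at 1.01 in both. With limma on log2(FPKM + 1), 1767 of all genes passed in place of 4037 (10.1% in place of 23.1%), and with limma on log2(TPM + 1), 2680 (15.3%). With no filter on low counts, 3861 of 27808 passed (13.9%), and with DESeq2, 4465 of 27808 (16.1%). With the filter on FPKM (1 or more in 3 libraries), 2665 of 11758 passed, a share of 22.7%. The median log2 fold change of all genes was 0.18 with DESeq2 and 0.171 with no filter, in place of 0.055. Relative to these medians Il6ra was at -1.98 in both and Il6st at 1.04 in both. The order of the mean levels was the same in TPM for all 8 genes in both groups.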
